A study of Mus musculus with 4 samples.

Results

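Capillaries that pass fatty acids from blood to tissue carry a set of genes for the release, uptake and binding of lipid, and 8 of them were followed through the cells of mouse Achilles tendon. They are Lpl, Gpihbp1, Cd36, Fabp4, Fabp5, Aqp7, Car4 and Thrsp, which were chosen by name from the 15746 genes of the count table, and all 8 were present in it. The cells came from Achilles tendons of male C57Bl/6 mice at 6 weeks of age, with no treatment or genetic change named, and were run as 4 libraries that form 1 group. RNA was counted with version 3 of the 10x Genomics 3' chemistry, in which a unique molecular identifier (UMI) marks each captured molecule. Whether a library holds the cells of 1 mouse or of pooled mice is not given in the sources used here, so differences between libraries may be technical as well as biological.

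Lipoprotein lipase (Lpl) frees fatty acids from triglyceride-rich lipoproteins inside capillaries. It is classically made by adipocytes and muscle cells and is carried across the capillary wall and held at its inner face by the endothelial protein Gpihbp1. Cd36, a membrane receptor, takes up the freed fatty acids, and the small binding proteins Fabp4 and Fabp5 carry them in the cytosol. Aqp7 is a channel for glycerol, Car4 is a carbonic anhydrase anchored to the outer cell membrane of capillaries, and Thrsp (Spot14) is a nuclear protein that takes part in lipid synthesis.

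The table of UMI counts held 1191 cells, with 580, 246, 256 and 109 in libraries 1, 2, 3 and 4, and no cell barcode was shared between libraries. The median depth per cell was 7440 to 8824 UMIs by library. Each cell bears 1 of 13 population names given by the authors. The 190 endothelial cells 1 (94, 46, 28 and 22 by library) carried all 10 blood endothelial markers, with the capillary and arterial markers at a summed 3926 to 5183 CPM (UMIs scaled to a common total, as counts per 1000000) and the venous markers at 525 to 734 CPM. The 74 endothelial cells 2 (30, 25, 11 and 8) carried 2783 to 5836 CPM of venous markers. The 36 endothelial cells 3 carried lymphatic markers, at a summed 9444 CPM in library 1, the library with 5 or more of these cells. Of the 10 capillary and arterial markers, 3 were highest in endothelial cells 1 and 5 in endothelial cells 3. Nerve cells 1 and bursal fibroblasts were highest for 1 each. Hemoglobin genes reached 7368 CPM in endothelial cells 1 of library 4, against 195 to 540 CPM in the other libraries. Levels below are CPM of all UMIs of a population in a library, over sums of 5 or more cells, and are compared within a gene and not between genes.

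The promoters of 4 of the 8 genes are in the RefSeq table used here (GRCm38.p6), and they are shown because most UMIs of each of these 4 genes were in endothelial cells 1. Fabp4, Fabp5, Lpl and Gpihbp1 have no entry in it. Each sequence runs from 250 bases before to 50 bases after a RefSeq start site on the strand of the gene. Capitals mark AGGTCA in either orientation (the core motif of nuclear receptors such as Pparg with Rxra), the GC box, GGGCGG, or the TATA box, TATAAA. The coordinates are chr4:41047913-41048212 (minus strand) for Aqp7, chr5:17835847-17836146 (minus) for Cd36, chr11:84957504-84957803 (plus) for Car4 and chr7:97417501-97417800 (minus) for Thrsp.
Aqp7: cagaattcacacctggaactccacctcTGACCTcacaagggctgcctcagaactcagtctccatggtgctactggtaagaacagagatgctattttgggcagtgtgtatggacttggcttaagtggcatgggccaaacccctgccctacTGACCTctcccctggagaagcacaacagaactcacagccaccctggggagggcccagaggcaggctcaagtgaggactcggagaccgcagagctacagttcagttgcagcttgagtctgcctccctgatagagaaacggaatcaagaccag
Cd36: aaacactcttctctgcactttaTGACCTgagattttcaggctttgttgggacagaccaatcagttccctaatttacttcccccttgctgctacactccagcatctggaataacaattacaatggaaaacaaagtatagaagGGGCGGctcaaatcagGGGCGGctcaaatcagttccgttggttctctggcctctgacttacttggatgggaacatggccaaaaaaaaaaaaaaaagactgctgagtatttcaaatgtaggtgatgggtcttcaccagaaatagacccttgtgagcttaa
Car4: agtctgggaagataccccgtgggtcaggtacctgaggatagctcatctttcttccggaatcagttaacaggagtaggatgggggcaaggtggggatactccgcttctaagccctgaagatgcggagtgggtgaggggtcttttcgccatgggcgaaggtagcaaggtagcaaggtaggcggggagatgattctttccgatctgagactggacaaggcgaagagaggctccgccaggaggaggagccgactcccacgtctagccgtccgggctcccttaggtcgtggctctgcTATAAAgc
Thrsp: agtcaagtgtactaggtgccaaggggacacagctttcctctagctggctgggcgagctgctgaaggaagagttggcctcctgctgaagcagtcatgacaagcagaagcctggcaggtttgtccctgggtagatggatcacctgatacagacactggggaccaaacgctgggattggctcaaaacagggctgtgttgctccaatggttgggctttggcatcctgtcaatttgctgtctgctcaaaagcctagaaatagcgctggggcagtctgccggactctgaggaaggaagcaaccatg

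The core motif occurred 2 times in the Aqp7 window, at -223 and -101 from the start site, and 1 time in the Cd36 window, at -228. A second Aqp7 start site, with its window at chr4:41048087-41048386, held 1 core motif at -49, the same copy as that at -223 of the first window. Cd36 also held 2 GC boxes, at -109 and -93. Car4 held the letters TATAAA at 42 bases after the start site, within the transcribed part, so they are not read as its TATA box. The Thrsp window held none of these motifs. The direct repeat bound by Pparg with Rxra, AGGTCA repeated in the same orientation with 1 base between, was in none of the windows. Of all 32851 promoters in the table, 16.3% hold the core motif, 35.7% the GC box, 13.6% the TATA box and 0.0396% the direct repeat. In the GRCm38 annotation, Fabp5 (chr3:10012548-10016607, plus strand) and Fabp4 (chr3:10204088-10208576, minus strand) lie near each other on chromosome 3, with the binding protein genes Pmp2 and Fabp9 between them.

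Endothelial cells 1 held most UMIs of each of these genes. They held 94.8% of all Car4 UMIs of the table, 92.2% of those of Aqp7, 91.1% of Thrsp and 84.8% of Gpihbp1. Of the Cd36 UMIs 77.5% were in these cells, of Fabp4 70.9%, of Lpl 60.2% and of Fabp5 53.8%. For the first 4 genes, endothelial cells 2 held between 4.10 and 8.24%, the next largest share, which for Thrsp pericytes also reached (17 UMIs each). The other 4 genes had a second place in venous endothelium, pericytes, immune cells, nerve cells or fibroblasts. Such shares grow with the size of a population, and endothelial cells 1 were the largest, with 1992030 UMIs. By pooled level, Fabp5 was higher in endothelial cells 2 (890 CPM) and in nerve cells 3 (649 CPM) than in endothelial cells 1 (614 CPM).

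**Figure D1:**
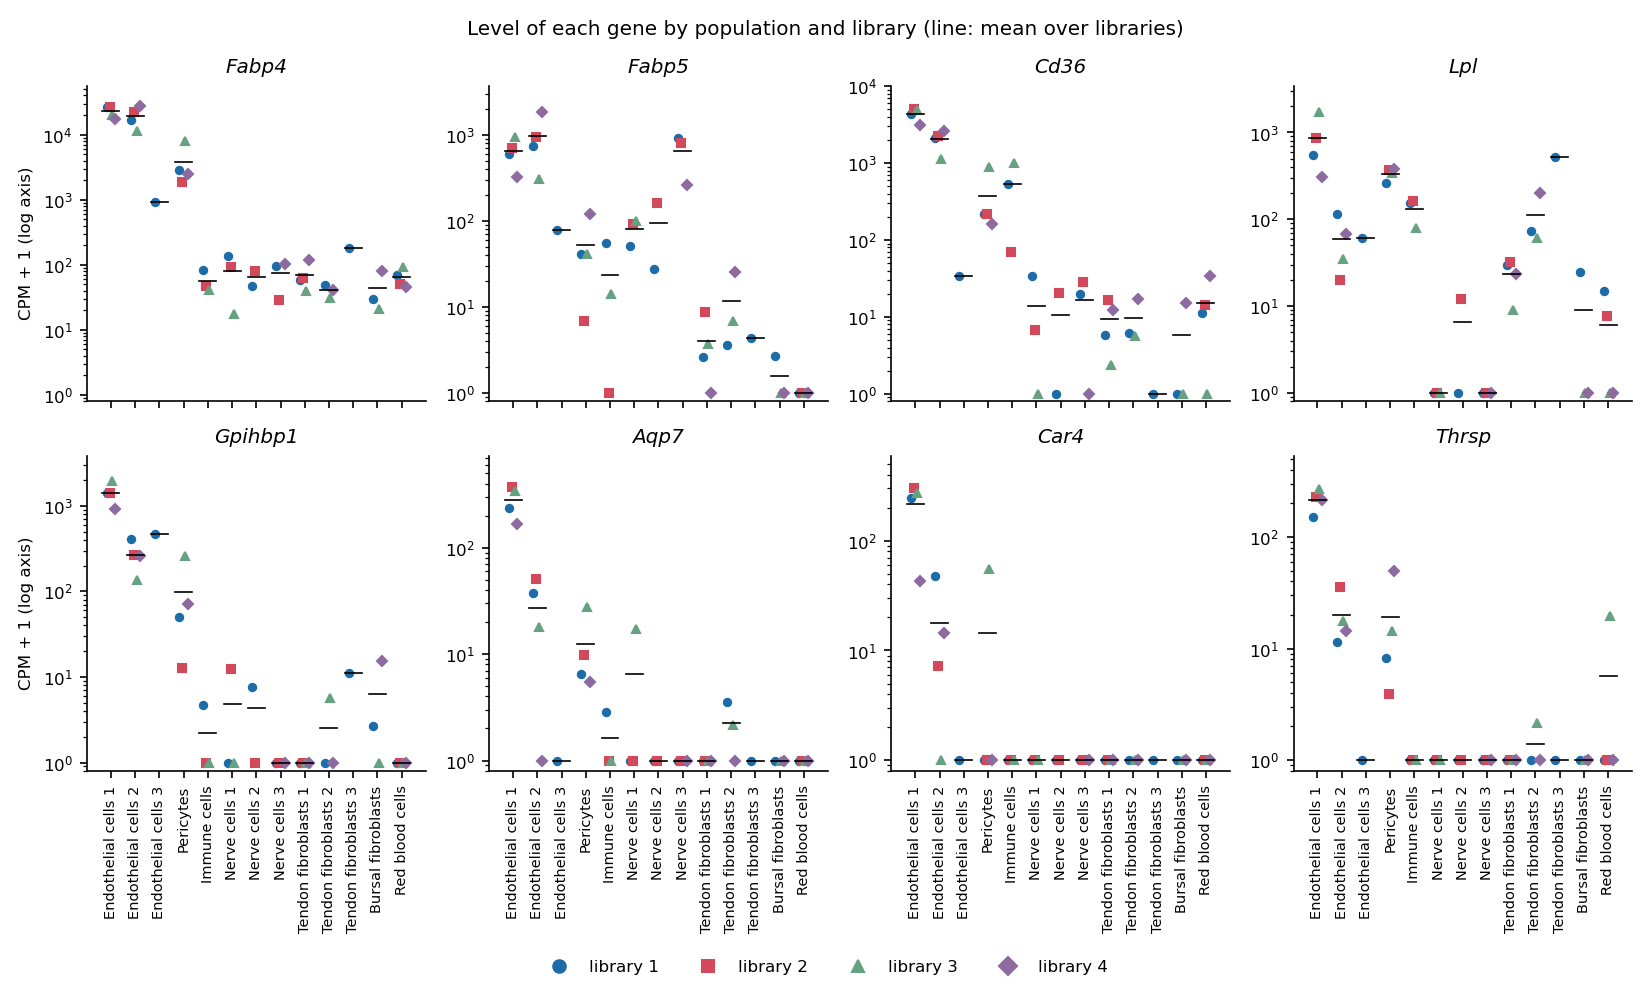
Level of each gene (CPM + 1, log axis) in the 13 populations, with a point per library for sums of 5 or more cells and a line at the mean over libraries. Car4, Aqp7 and Thrsp sit near the bottom of the axis outside endothelial cells 1 and 2 and pericytes, while Lpl has a second group of high points in pericytes and tendon fibroblasts 3, Cd36 in immune cells and Fabp5 in nerve cells 3.

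Endothelial cells 1 were compared with endothelial cells 2 to ask which of these genes tell the capillary and arterial population from the venous one. The cells of both populations came from the same libraries, and UMIs summed per library and population were compared within libraries with the edgeR quasi-likelihood test. Lpl, Gpihbp1 and Cd36 were higher in endothelial cells 1, whereas the fatty acid binding genes Fabp4 and Fabp5 did not pass the test in either direction. Over all 5126 genes tested, 7.74% passed as higher at an adjusted p of 0.05 and 10.5% as lower. Leaving out Aqp7, Car4 and Thrsp, which an earlier description of the same cells had named as leading genes of endothelial cells 1, 3 of 5 genes passed as higher and 0 as lower. All 8 genes were chosen with earlier results of these cells known, so nothing is read from this count against the background. All 8 passed the filter on low counts, and the populations themselves rest on these counts, since the authors named the cells from them. Dissociation response genes, which rise when tissue is taken apart, were at a summed 5115 to 8688 CPM in endothelial cells 1 and at 9582 to 12188 CPM in endothelial cells 2. Pericyte and smooth muscle markers were at 454 to 1405 and 1416 to 2810 CPM, and adipocyte markers at 161 to 417 and 67.3 to 207 CPM. Their part in the differences was not tested.

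For lipase itself, Lpl stood at 553, 867, 1715 and 306 CPM in endothelial cells 1 of libraries 1, 2, 3 and 4. In endothelial cells 2 it was at 115, 18.8, 33.6 and 67.5 CPM. The groups did not overlap, and the lowest value of endothelial cells 1 was in library 4. The log2 fold change was 3.45 ± 0.39 (SE), higher in 4 of 4 libraries (edgeR adjusted p = 7.02e-06).

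Its endothelial carrier Gpihbp1 was at 1415, 1422, 1932 and 928 CPM in endothelial cells 1. Endothelial cells 2 had 414, 264, 135 and 257 CPM, all below every value of endothelial cells 1. This gave a log2 fold change of 2.23 ± 0.23 (edgeR adjusted p = 2.28e-06). Lymphatic endothelial cells 3 carried 470 CPM of Gpihbp1 in library 1, above the highest value in endothelial cells 2.

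The fatty acid receptor Cd36 was at 4409, 5034, 4850 and 3152 CPM in endothelial cells 1. It remained well detected in endothelial cells 2, at 2102, 2282, 1144 and 2620 CPM. The groups did not overlap, though in library 4 the values were closest. The log2 fold change was 1.04 ± 0.20 (edgeR adjusted p = 0.00105), and with all 13 populations in 1 fit it was 1.06 and did not pass (adjusted p = 0.196).

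Fabp4 was at 26757, 26612, 20172 and 17636 CPM in endothelial cells 1 and at 16556, 22076, 11285 and 27961 CPM in endothelial cells 2. It was higher in endothelial cells 1 of libraries 1, 2 and 3 and lower in library 4, so the ranges overlapped. The log2 fold change was 0.22 ± 0.18 (edgeR adjusted p = 0.468). Without library 4 it was 0.54 and passed (adjusted p = 0.00389). In library 4, endothelial cells 2 are a sum of 8 cells.

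Fabp5, the close relative of Fabp4, was the 1 gene of the set with a lower mean in endothelial cells 1. It stood at 597, 711, 939 and 322 CPM there and at 746, 948, 303 and 1851 CPM in endothelial cells 2. Libraries 1, 2 and 4 were lower in endothelial cells 1 and library 3 was higher. The log2 fold change was -0.60 ± 0.36 (edgeR adjusted p = 0.317), and without library 3 it was -1.04 with an adjusted p of 0.042.

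For Aqp7, Car4 and Thrsp, because of that earlier naming, the values are given with no p. Aqp7 was at 237, 368, 343 and 168 CPM in endothelial cells 1 and at 36.6, 50.2, 16.8 and 0 CPM in endothelial cells 2. Thrsp was at 149, 227, 269 and 216 CPM against 10.5, 34.5, 16.8 and 13.5 CPM. Neither gene overlapped between the populations. Car4 was at 244, 299, 274 and 41.9 CPM against 47.1, 6.28, 0 and 13.5 CPM. It was higher in endothelial cells 1 of every library, but the value of library 4 lay below that of endothelial cells 2 in library 1. The log2 fold changes were 2.93 for Aqp7, 3.26 for Car4 and 3.20 for Thrsp.

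**Figure D2:**
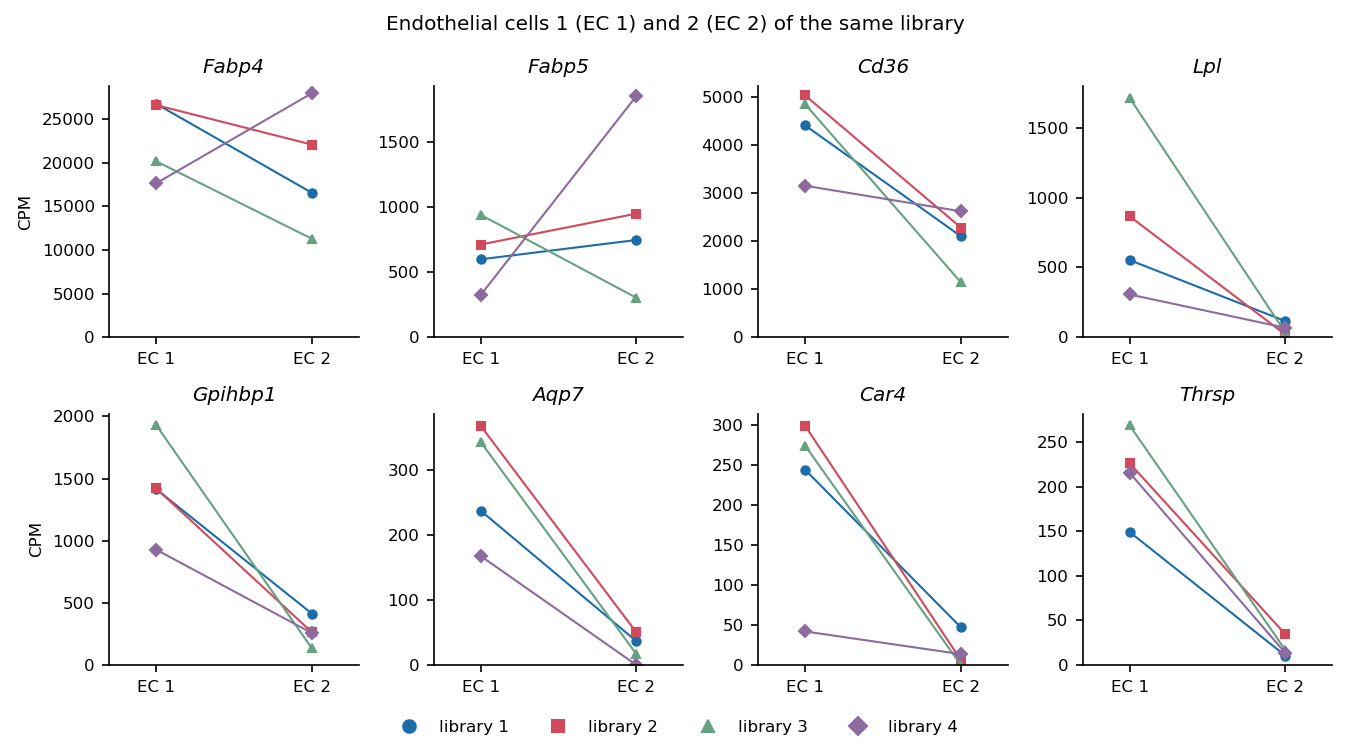
Level (CPM, linear axis from 0) of each gene in endothelial cells 1 and 2, with the sums of 1 library joined by a line. All 4 lines fall for Cd36, Lpl, Gpihbp1, Aqp7, Car4 and Thrsp, whereas the lines for Fabp4 and Fabp5 cross.

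Other genes of lipid handling differed between the same populations in part. Of 18 genes of intracellular lipolysis and lipid droplets, 6 could be tested and 4 were higher in endothelial cells 1, with a median log2 fold change of 0.92 over the 6. The lipases for tri-, di- and monoglycerides, Pnpla2, Lipe and Mgll, rose by log2 fold changes of 0.97 ± 0.22, 0.86 ± 0.23 and 0.98 ± 0.21 (edgeR adjusted p = 0.00394, 0.0147 and 0.00267). Lipe did not pass under 5 of 12 other settings, among them DESeq2, with an adjusted p of 0.0724, and populations rebuilt without these genes, with 0.18. For Pnpla2 and Mgll the adjusted p reached 0.0551 and 0.071 over 13 other settings (edgeR or DESeq2). The fourth was Plin2, a coat protein of lipid droplets. The test was not passed by any of the 15 tested genes of fatty acid activation and oxidation (25 in the table), nor by any of 7 tested genes of lipid synthesis (19 in the table).

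Of the uptake and binding genes, 2 of 6 tested were higher in endothelial cells 1, the caveolar coat proteins Cav1 (log2 fold change 0.78 ± 0.19, edgeR adjusted p = 0.00772) and Cav2 (0.81 ± 0.17, adjusted p = 0.00214). Their adjusted p reached 0.152 for Cav1 and 0.0644 for Cav2 over 13 other settings (edgeR or DESeq2). Around the lipase, 8 of 18 genes could be tested. The heparan sulfate proteoglycan Hspg2 was higher by 1.03 ± 0.18 (adjusted p = 0.000485) and Apoe, the ligand of lipoprotein receptors, lower by a log2 fold change of -1.97 ± 0.20 (adjusted p = 2.23e-06). Apoe stood at 1874 ± 985 CPM in endothelial cells 2 against 454 ± 122 CPM in endothelial cells 1 (SD, n = 4 libraries each). Aqp1, the water channel, went the opposite way to Aqp7, with a log2 fold change of -1.15 ± 0.23 (adjusted p = 0.00159). It lost its call without the library block (adjusted p = 0.0669). Over 13 other settings (edgeR or DESeq2) the log2 fold change of Aqp1 ran from -1.42 to -0.77, and its adjusted p reached 0.662. Of the carbonic anhydrases besides Car4, Car3 was the 1 gene tested, and it was higher.

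Among regulators of fatty acid handling, 4 of 16 tested were higher and 5 lower, with a median log2 fold change of 0.00 (29 genes in the table). Tcf15 and Meox2 are partners in a transcription factor pair described in heart endothelium, and here they went opposite ways. Tcf15 was higher by 1.88 ± 0.23 (edgeR adjusted p = 1.66e-05) and Meox2 lower, with -1.01 ± 0.23 (adjusted p = 0.00411). For Meox2 the adjusted p reached 0.0795 over 13 other settings (edgeR or DESeq2). Nrp1, a receptor for Vegfb and other Vegf proteins, was higher by 1.41 ± 0.17 (adjusted p = 1.16e-05), and Foxo1 was lower, with -1.37 ± 0.23 (adjusted p = 0.000387). Pparg, a nuclear receptor for fatty acids, was at 130 CPM against 53.4 CPM on average and was higher by 1.34 ± 0.30 (adjusted p = 0.00411). Ppara, the receptor of oxidative tissues, had 6 UMIs in all cells.

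The gene set did not vary as a block within endothelial cells 1. Cells were clustered anew without the 8 genes and without the other lipid genes listed, which gave 23 clusters, and the 190 endothelial cells 1 fell mainly into cluster 0 (89 cells), cluster 2 (48 cells) and cluster 11 (19 cells), with 23 more in the venous cluster 8. Clusters 0 and 2 had median depths of 7301 and 7273 UMIs per cell and blood endothelial markers at a pooled 8756 and 7846 CPM. These clusters were examined after their values had been seen, so what follows is a description with no test.

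Among the clusters of endothelial cells 1, Lpl was found mainly in cluster 0. It stood there at 1165, 1289 and 2218 CPM in libraries 1, 2 and 3, and in cluster 2 at 9.47, 39.9, 57.1 and 18.4 CPM in libraries 1, 2, 3 and 4. The 1306 UMIs of cluster 0 and 10 UMIs of cluster 2 make a pooled ratio of 69.5. Car4 followed the same division, at 535, 438 and 357 CPM in cluster 0 against 9.47, 26.6, 0 and 12.3 CPM in cluster 2. Ranked by the ratio of pooled levels (10 CPM added to both), Lpl was at place 1 and Car4 at place 2 of all 15746 genes. Neither gene had been used to form the clusters.

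The other genes did not divide in this way. Fabp4 was 1.95 times, Fabp5 2.44 times, Cd36 2.12 times, Gpihbp1 2.27 times and Aqp7 3.00 times as high in cluster 0 as in cluster 2 in pooled levels. Gpihbp1 and Aqp7 kept 925 and 140 CPM in cluster 2, above the 399 and 58.2 CPM of cluster 8. Thrsp was at 203 CPM in cluster 0 and at 239 CPM in cluster 2, where it was above the 31.1 CPM of the venous cluster 8. By library, Thrsp ran from 152 to 254 CPM in cluster 0 and from 189 to 400 CPM in cluster 2, and these ranges overlapped. Lpl in cluster 2 (20.6 CPM pooled, from 10 UMIs) lay below its pooled level in cluster 8 (90.3 CPM), but not in every library. In cluster 8 it was at 144, 35.5, 29.3 and 64.2 CPM in libraries 1, 2, 3 and 4. Cluster 2 was below this in libraries 1 and 4 and above it in libraries 2 and 3.

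Cluster 11 carried the arterial markers, with Sema3g at 1190 CPM against 155 CPM in cluster 0. Of its 19 cells, none had a UMI of Car4, which allows a level of up to 17.6 CPM, and 2 UMIs of Lpl were found. Fabp5 was at 76.2 CPM, Gpihbp1 at 545 CPM and Cd36 at 2228 CPM in this cluster, each below its level in clusters 0 and 2. The values rest on few cells, with 11 in library 1 and 4 each in libraries 2 and 4.

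**Figure D3:**
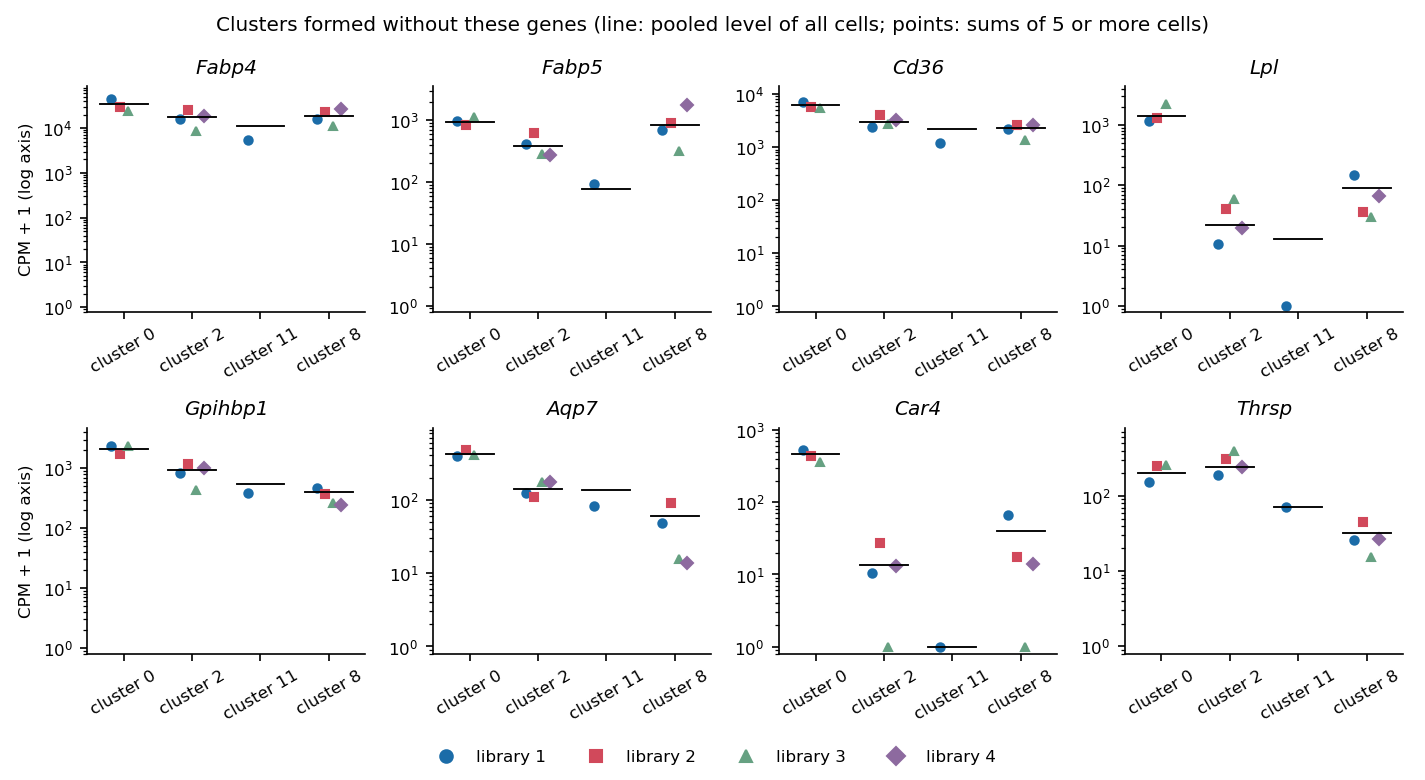
Level (CPM + 1, log axis) in the 3 clusters of endothelial cells 1 (0, 2 and the arterial cluster 11) and in the venous cluster 8, formed without these genes, with a point per library for sums of 5 or more cells and a line at the pooled level. Lpl and Car4 are high in cluster 0 and near the bottom in clusters 2 and 11, while Thrsp is as high in cluster 2 as in cluster 0.

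Several other measures moved with the division into clusters 0 and 2. Cluster 2 was led by Col13a1, Esm1, Plvap and hemoglobin genes and cluster 0, besides the genes left out of the clustering, by Cxcl9, Adh1, Npr3 and Timp4. Skeletal muscle markers summed to 28.4 to 54.0 CPM by library in cluster 0 and to 0 to 12.3 CPM in cluster 2. The adipocyte markers (12 in the table) summed to 309 to 637 CPM against 123 to 314 CPM. In all endothelial cells 1 they summed to 161 to 417 CPM by library, most of it Lipe (187 CPM pooled) and Cfd (88.4 CPM). The defining adipocyte genes Adipoq, Plin1 and Cidec were at 16.1, 3.01 and 17.1 CPM, and Cidea was at 0. Of the 12 adipocyte markers, however, 8 were highest in endothelial cells 1 among all populations. Bursal fibroblasts, endothelial cells 3, pericytes and tendon fibroblasts 1 were highest for 1 each. Pericyte markers were lower in cluster 0, at 121 to 270 CPM against 718 to 828 CPM. Hemoglobin genes ran from 213 to 569 CPM in cluster 0 and from 85.7 to 13215 CPM in cluster 2. The part of these cells and RNAs in the division was not tested.

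The libraries differed in how their endothelial cells 1 were made up. Cluster 0 held 41 of 94, 28 of 46 and 18 of 28 of these cells in libraries 1, 2 and 3, and 2 of 22 in library 4. Library 4 also had the lowest level in endothelial cells 1 for Lpl, Car4, Cd36, Gpihbp1, Aqp7, Fabp4 and Fabp5, and not for Thrsp. In sums over a population, fewer cells of a kind and less RNA per cell cannot be told apart. In cluster 2, which has 11 cells in library 4, the levels of that library lay within the range of the other 3 libraries for Fabp4, Cd36, Lpl, Gpihbp1, Car4 and Thrsp. Fabp5 was lower there than in the others (270 CPM against 286 to 625 CPM), and Aqp7 was at the upper end (172 CPM against 106 to 171 CPM). These values do not tell the makeup of the population from the RNA per cell.

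Single cells were compared after each was thinned to 2400 UMIs, which left 176 endothelial cells 1. A Fabp4 UMI was found in 95.5% of them, a Cd36 UMI in 88.1%, Gpihbp1 in 80.7% and Fabp5 in 56.3%. Aqp7 was found in 47.7%, Lpl in 44.3%, Thrsp in 35.8% and Car4 in 30.7%. Without thinning, these shares were 95.8, 92.1, 85.3, 74.2, 66.3, 55.8, 60.0 and 46.3% of 190 cells. Red blood cells, which should lack all of these RNAs, served as the background, with a median depth of 4132 UMIs against 7343. After thinning, 14.2% of 106 red blood cells had a Fabp4 UMI, 2.83% a Cd36 UMI and 0.943% an Lpl UMI. No Gpihbp1, Fabp5, Aqp7, Car4 or Thrsp UMI was found in these 106 cells, which allows a share of cells with a UMI of up to 2.83% at a floor of 3 counts (exact 95% upper bound 3.42%). In 69 endothelial cells 2, the shares for Aqp7, Car4 and Thrsp were 2.90% each.

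Endothelial cells 1 carried UMIs of 4.79 of the 8 genes per cell on average, and 75.6% of them carried 4 or more. The mean was 2.83 genes in endothelial cells 2 and 1.49 in pericytes, with 21.7% and 4.81% of cells at 4 or more. All 8 genes were found in 10 of the 176 cells, and all 10 were in cluster 0, where 98.9% of 87 cells carried 4 or more. In cluster 2 this share was 58.7% of 46 cells. There, an Lpl UMI was found in 4 cells and a Car4 UMI in 2, against 69 and 49 of the 87 cells of cluster 0, while Thrsp was found in 34.8% and 43.7% of cells.

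**Figure D4:**
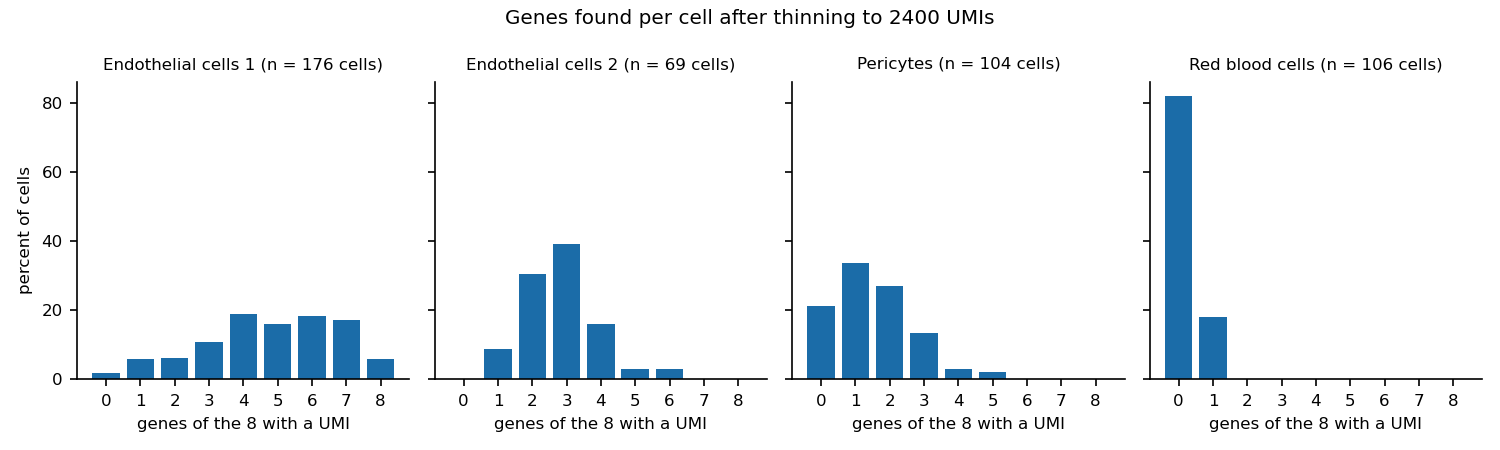
Percent of cells by how many of the 8 genes have a UMI after thinning to 2400 UMIs, in endothelial cells 1 (176 cells), endothelial cells 2 (69), pericytes (104) and red blood cells (106). Endothelial cells 1 spread from 0 to 8 genes with most between 4 and 7, and red blood cells have 0 or 1.

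Across the 176 thinned endothelial cells 1, Fabp4 and Cd36 varied together most closely (Pearson r = 0.79, from 0.69 to 0.85 by library). Gpihbp1 followed both, with r = 0.63 for Fabp4 and r = 0.63 for Cd36. Lpl had r = 0.49 with Fabp5 (from 0.27 to 0.58 by library) and r = 0.42 with Car4 (from 0.06 to 0.59). Close to the latter, Lpl had r = 0.41 with Cd36 and r = 0.40 with Aqp7. The correlations of Thrsp, which 35.8% of cells show at this depth, were between 0.04 and 0.14 with the other 7 genes. They differed by library. In library 4, with 20 of these cells, they were 0.38 with Fabp4, 0.45 with Fabp5, 0.35 with Lpl and 0.43 with Aqp7. With Cd36, Car4 and Gpihbp1 they were 0.15, 0.18 and -0.07 in that library. The summed arterial markers had negative correlations with Fabp5 (r = -0.33, from -0.42 to -0.11 by library), Gpihbp1 (r = -0.31, from -0.54 to -0.06) and Cd36 (r = -0.33, from -0.66 to 0.06). The value above 0 for Cd36 was that of library 4. With Thrsp the arterial markers had r = 0.02. These are descriptions over cells of shared libraries, which are not replicates.

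Pericytes, the mural cells around capillaries, were compared with endothelial cells 1 next, because Lpl is known from cells beneath the endothelium. Over all 5493 genes tested, 17.6% were higher in endothelial cells 1 and 16.6% lower (edgeR quasi-likelihood test, adjusted p under 0.05). Without Aqp7, Car4 and Thrsp, 4 of 5 genes were higher and 0 lower, a count from which, again, nothing is read against the background. The exception was Lpl, at 261, 367, 336 and 375 CPM in pericytes of libraries 1, 2, 3 and 4. In libraries 1, 2 and 3 pericytes were below endothelial cells 1 and in library 4 they were above, and the ranges overlapped. The log2 fold change was 0.94 ± 0.34 (edgeR adjusted p = 0.0584), and 7 of 14 other settings put it past the threshold, with adjusted p from 8.66e-06 to 0.155 over all 14. Without library 4 it was 1.37 (adjusted p = 0.00741).

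Pericytes also carried endothelial RNA. Of the 10 blood endothelial markers, 9 stood in pericytes at 8.75 to 31.3% of their pooled level in endothelial cells 1, with a median of 10.9%, and Esam, which pericytes share, was left out. By library the median was 9.34, 5.91, 22.9 and 20.3%. Fabp4 in pericytes was at 2822, 1869, 8026 and 2487 CPM, which is 10.5, 7.03, 39.8 and 14.1% of endothelial cells 1. Its log2 fold change was 2.70 ± 0.31 (edgeR adjusted p = 9.88e-05). Cd36 was at 216, 216, 887 and 159 CPM in pericytes, with a log2 fold change of 3.81 ± 0.31 (adjusted p = 1.3e-05). Library 3 was highest for both genes and for the endothelial markers.

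Of 107 pericytes, 77 had no UMI of the 9 markers. In these 77 cells, Lpl was at 379 ± 95.4 CPM (SD, n = 4 libraries), as high as in all pericytes. Fabp4 was at 2322 ± 848 CPM there, above the 44.6 to 92.7 CPM of red blood cells. Cd36 was at 72.9 ± 33.2 CPM, against 370 ± 346 CPM in all pericytes. Gpihbp1 had 3 UMIs in these cells, Aqp7 had 1, and Car4 and Thrsp had 0.

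The other lipid genes differed in both directions. Of 15 tested genes of fatty acid activation and oxidation, 1 was higher in endothelial cells 1 and 6 were higher in pericytes, with a median log2 fold change of -0.53 against 0.01 over all genes tested. Of 6 tested genes of intracellular lipolysis and lipid droplets 2 were higher in endothelial cells 1 and 0 lower, and of 10 tested genes around the lipase 4 were higher and 2 lower.

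**Figure D5:**
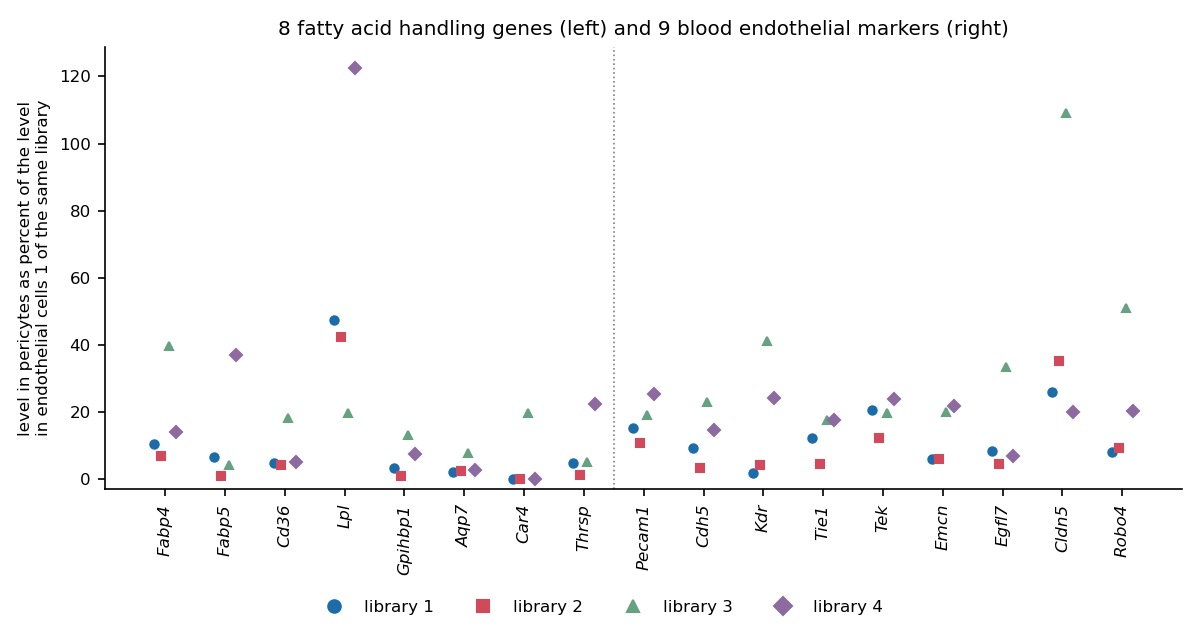
Level in pericytes as a percent of the level in endothelial cells 1 of the same library, for the 8 genes (left of the dotted line) and for 9 blood endothelial markers (right), with a point per library. Lpl lies at 19.6% or above in every library, while Gpihbp1 and Aqp7 lie at 13.2% or below.

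Immune cells were set against endothelial cells 1 as the other population with Cd36. In the 3 libraries with 5 or more immune cells, 18.0% of the 5626 genes tested were higher in endothelial cells 1 (edgeR quasi-likelihood test). Among them were Lpl, Cd36, Fabp4 and Fabp5, of which Lpl and Cd36 had the smallest log2 fold changes. Gpihbp1, with 2 UMIs in these immune cells, passed the filter on low counts through endothelial cells 1 alone, so its call is not read as a test result. Cd36 is also a scavenger receptor of macrophages, and it was at 539, 69.6 and 1017 CPM in immune cells of libraries 1, 2 and 3. Values differed widely between libraries and were all below endothelial cells 1, with a log2 fold change of 3.42 ± 0.40 (adjusted p = 1.31e-09). In the 75 immune cells with no endothelial marker UMI, Cd36 was at a pooled 557 CPM. Lpl was at 154, 162 and 79.2 CPM in immune cells, and its log2 fold change was 2.79 ± 0.42 (adjusted p = 3.47e-07).

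The other genes were low in immune cells. Fabp4 stood at 81.5, 46.4 and 39.6 CPM, against 44.6 to 92.7 CPM in red blood cells. Fabp5 was at 53.7, 0 and 13.2 CPM, with 39 UMIs in all 92 immune cells and up to 11 in a cell, while red blood cells had 0. Gpihbp1 had 2 UMIs in immune cells, a ratio of CPM of 486 with an exact 95% interval from 134 to 4013, and Aqp7 had 1, a ratio of 189 (33.7 to 7470). Car4 and Thrsp had 0 UMIs, which makes them at least 57.8-fold and 40.6-fold higher in endothelial cells 1 at a floor of 3 counts over these libraries. These limits cover counting error only.

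Lpl had another place in the fibroblasts of the tendon. Tendon fibroblasts 2 and 1 were compared because both are numerous, and Lpl was at 73.0, 59.3 and 201 CPM in tendon fibroblasts 2 of libraries 1, 3 and 4. In tendon fibroblasts 1 it was at 28.6, 8.09 and 22.7 CPM in the same libraries. The groups did not overlap, and the log2 fold change was 2.05 ± 0.39 (edgeR adjusted p = 0.0102), against 3.79% of 7043 genes tested that were higher. With populations rebuilt without these genes it was 1.70 and did not pass (adjusted p = 0.0529). Fabp4 was the other gene of the 8 that could be tested, with -0.74 ± 0.31 (adjusted p = 0.236), and its levels of 30.2 to 117 CPM overlapped those of red blood cells. The remaining 6 genes had 0 to 10 UMIs in either population.

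Angptl4, an inhibitor of lipoprotein lipase, was higher in the same comparison, at 54.3 CPM against 4.16 CPM on average, with a log2 fold change of 3.30 ± 0.58 (edgeR adjusted p = 0.00683). Of the 11 tested genes around the lipase, 1 was higher and 2 lower. Tendon fibroblasts 3 had Lpl at 527 CPM in library 1, the library with 5 or more of these cells, which lies in the range of endothelial cells 1. In the 39 tendon fibroblasts 3 with no endothelial marker UMI it was at a pooled 554 CPM, and after thinning 52.2% of 46 cells had an Lpl UMI. Fabp5, Cd36, Gpihbp1, Aqp7, Car4 and Thrsp were found in none of these 46 cells, which allows a share of cells with a UMI of up to 6.52% for each at a floor of 3 counts (exact 95% upper bound 7.71%).

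Outside the endothelium, the mean level of Fabp5 was highest in nerve cells 3, at 907, 798 and 262 CPM in libraries 1, 2 and 4. These values overlap those of endothelial cells 1 and of endothelial cells 2. In the 30 of these 32 cells with no endothelial marker UMI, Fabp5 was at a pooled 656 CPM. Dissociation response genes were at 30000, 32004 and 12840 CPM in nerve cells 3 of the same libraries, against 5115 to 8688 CPM in endothelial cells 1. The median depth of nerve cells 3 was 2591 UMIs, and 13 of the 32 cells were too shallow for thinning. The part of dissociation and depth in this level was not tested. The acyl-CoA binding gene Dbi was highest in the same population, at a pooled 3286 CPM against 204 CPM in endothelial cells 1.

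Ordered by mean level, Fabp4 ran from endothelial cells 1 (22794 ± 4610 CPM, SD, n = 4) and endothelial cells 2 (19470 ± 7173 CPM, n = 4), whose ranges overlapped, to pericytes (3801 ± 2844 CPM, n = 4). Endothelial cells 3 had 930 CPM in library 1, and the remaining populations lay between 39.7 and 179 CPM. For Fabp5 the order was endothelial cells 2 (962 ± 651 CPM), nerve cells 3 (656 ± 345 CPM, n = 3) and endothelial cells 1 (642 ± 257 CPM), with overlapping ranges. Cd36 ran from endothelial cells 1 (4361 ± 848 CPM) over endothelial cells 2 (2037 ± 633 CPM) to immune cells (542 ± 474 CPM, n = 3) and pericytes (370 ± 346 CPM), and only the last pair overlapped. Lpl ran from endothelial cells 1 (860 ± 614 CPM) over tendon fibroblasts 3 to pericytes (335 ± 51.9 CPM) and immune cells (132 ± 45.7 CPM, n = 3).

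The genes whose levels were most alike over the 39 sums of 5 or more cells were named by the Pearson correlation of log2(CPM + 10) among 10884 genes. For Fabp4 they were Cyyr1, C130074G19Rik and Adgrl4 (r = 0.98 each). For Gpihbp1 they were Ushbp1, Gimap8 and Cdh5 (r = 0.98 to 0.97), and for Cd36 Tspan13, Cd93 and Entpd1 (r = 0.94 to 0.92). Aqp7 and Car4 shared Akr1c14 and Ccdc85a as their closest pair, with r = 0.97 and 0.96 for Aqp7 and 0.92 for Car4, and Thrsp had Notch4 and Apol10b (r = 0.95 and 0.93). Aqp7 was also the third closest gene of Car4 and of Thrsp (r = 0.92 each). For Fabp5 the closest were Prex2, Scarb1 and Adgrg1 (r = 0.91 to 0.86), and for Lpl Rasgrp2, Ifi203 and Mndal (r = 0.87 to 0.83).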

How the data were processed

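Single-cell RNA counts were available for 4 libraries of mouse Achilles tendon. The authors deposited raw UMI counts per gene and cell with a population name for each cell. Per the submitters' processing notes, Cell Ranger, Seurat 2.3.4 and R 3.5.2 were used with mm10; cell filters are not given in the sources used here. Of 15750 gene entries, 4 under a repeated name (0.0186% of UMIs) were left out. The libraries hold 1375111 to 5603366 UMIs.

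UMIs were summed per library and population (5 or more cells, 3 or more libraries) and compared by edgeR 4.0.16 (quasi-likelihood test, R 4.3.3), after TMM scaling and filterByExpr, with Benjamini-Hochberg adjustment over all genes tested, at an adjusted p of 0.05. The library was a block, since both sums come from its cells; deviations of such sums correlated weakly across genes (-0.013 to 0.147). P-values measure how far the difference between populations within a library varies from library to library. Lpl, Cd36, Gpihbp1, Fabp4, Fabp5, Aqp7, Car4, Thrsp and all gene lists were chosen with earlier results of these data known. Besides these 8, genes were named from each lipid list as the up to 3 highest and 3 lowest in endothelial cells 1 against 2 that passed, moved the same way in every library and reached 50 CPM. Plin2, Car3, Pparg, Ppara, Dbi and Angptl4 were named after their values were seen, as were the cluster markers. Marker lists (adipocyte, muscle, endothelial, arterial, venous, lymphatic, pericyte, macrophage, nerve, fibroblast, hemoglobin and dissociation genes) served as checks. Macrophage and monocyte markers summed to 10.6 to 26.7 CPM in endothelial cells 1, nerve markers to 12.9 to 102 CPM, tendon fibroblast markers to 143 to 538 CPM, lymphatic markers to 21.1 to 79.0 CPM and muscle markers to 9.67 to 36.9 CPM.

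Shares of cells used cells thinned to 2400 UMIs, which left out 114 shallower cells (14 of endothelial cells 1, 39 of red blood cells). Clusters were formed with scanpy 1.11.5 (2000 variable genes, 30 components, 15 neighbours, resolution 2). Doublets were not called; an alternative leaves out cells above the 95th percentile of UMIs. Intervals and floors cover counting error only. The fits were tested on simulated data. Other settings were TMM against RLE size factors, DESeq2 1.42.0, no filter, no block, 10 cells per sum, thinned cells, rebuilt populations, 1 joint fit and leaving out each library.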

Additional observations from a re-analysis of the deposited data

Results flagged for a closer look

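Dixon's ratio was taken for 32 combinations of a gene and a population with values in all 4 libraries that were not all equal. Of these, 4 have 1 library far from the others, and chance flags about 1 in 20 such groups. In pericytes, library 3 stood apart with Fabp4 at 8026 CPM against 2822 CPM in the next library, with Cd36 at 887 CPM against 216 CPM, and with Car4 at 53.8 CPM (4 UMIs) against 0 in the other libraries. The pericytes of library 3 are 11 cells, and the median level of 9 endothelial markers there was 22.9% of that in endothelial cells 1. In red blood cells, Thrsp was at 18.5 CPM in library 3, which is 1 UMI, and at 0 in the others. For Car4 and Thrsp, the 0 in all other libraries sets the ratio at 1 whatever the count. The chance rate of 1 in 20 does not apply to them.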

How the results depend on the processing

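The counts of the 8 genes that passed, which include Aqp7, Car4 and Thrsp, stayed within 1.5 times of the value reported in 48 of 49 other settings. The exception was the 1 gene, Lpl, in tendon fibroblasts 2 against 1, which fell to 0 with populations rebuilt without these genes. Leaving out 1 library gave 6 to 7 genes against endothelial cells 2, 7 to 8 against pericytes, 8 against immune cells and 1 in the fibroblasts. In the comparisons with endothelial cells 1, counts that began at 6, 7 or 8 of the 8 genes could not rise past 1.5 times. Only a fall could have been seen there. The genes were also chosen with earlier results of these cells known, so nothing is read from these counts. No log2 fold change of the 8 genes or of the other genes named by rule changed sign, 12 gained and 16 lost their call, and the cause was not tested. Against endothelial cells 2, Fabp4 also passed with thinned cells (0.59, adjusted p = 0.00246) and without cells above the 95th percentile of UMIs (0.59, adjusted p = 0.0455). All 64 mean levels in endothelial cells 1 under other settings stayed within 1 SD, but for part of them this was fixed in advance. Allowing sums of 1 or more cells changes nothing in this population. Leaving out 1 of 4 libraries moves a mean by less than 1 SD whatever the values.

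Counts over all genes varied between settings. Endothelial cells 1 against 2 gave 933 genes, against 570 with DESeq2, 294 with thinned cells (1039 genes tested) and 535 with all populations in 1 fit, and 484 to 997 without 1 library (616 without library 1, 484 without library 2). Pericytes gave 1877, against 2918 with no filter and 495 with thinned cells, and 1310 to 2238 without 1 library. Immune cells gave 1698, against 560 with thinned cells, and 773 (without library 1) to 2156. The fibroblasts gave 572, against 371 with DESeq2, 1073 with no filter and 266 with thinned cells, and 362 (without library 1) to 529.

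The library block was left out as another setting. Without the replicate block, 880, 1993, 1891 and 547 genes passed in the 4 comparisons and 6, 8, 8 and 1 of the 8 genes, with Lpl past the threshold against pericytes (1.22, adjusted p = 0.0281). The setting of 10 or more cells per sum could not be run for immune cells and fibroblasts, where too few libraries remained. Leaving out immune cells and pericytes with an endothelial UMI was chosen after seeing the data and gave 8 of 8 genes in both comparisons. The cells kept were picked for lacking endothelial RNA, which lowers endothelial genes in them by construction, so nothing is read from this count. Levels of a few CPM rest on single UMIs and cannot be ranked.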
